A study of Oncorhynchus mykiss with 48 samples.

Results

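The 100 most abundant genes of the rainbow trout liver were followed through age, generation and bisphenol A (BPA) treatment. They were the 100 identifiers with the highest mean CPM (a gene's fragments per 1000000 fragments of the same fish) over the 16 Control fish, out of 46568 genes, after 17 genes marked HIDATA (too many fragments for the authors' software to process) had been left out. The summed CPM of the 100 genes is thus their share of the liver transcriptome without those 17 genes. Livers of 48 fish were sequenced, with 4 fish in each of 12 groups. The F1 fish came from eggs that had taken up 0 (Control), 4 (BPA4) or 40 (BPA40) ng BPA per egg before fertilization with sperm of untreated males, and were sampled at 140 and 365 days post fertilization (dpf). The F2 fish were the offspring of F1 females of these treatments and untreated males, and were sampled at 112 and 365 dpf. No BPA was detectable in the eggs they came from. Per the paper, the germ cells from which those eggs formed had met BPA in the F1 embryos. The F0 eggs were pooled over several females before they were divided among the treatments. Per the paper, the F1 samples came from an experiment with replicate tanks for each treatment, and the tank of each F1 fish was not used here. Each treatment of F2 was kept in 1 tank, so that tank and treatment cannot be told apart in F2. The fish of a group were separate animals. In each of 4 deposited tables, 1 per time point, the fragments in the 46568 genes were summed per fish, and they ranged from 6244010 to 18668700 per fish, with the lowest depth at F2 112 dpf, and counting error put at most 0.0367 percentage points on either side of a fish's share (95% Wilson interval, counting error only). Of the 48 fish, F2 365 dpf Control replicate 0 stood apart, with levels like those of younger fish in many genes that changed with age, and its values are given with the age results. Whether its label is right cannot be checked from the tables, and 98 of the 100 genes were the same when chosen on the 15 other Control fish.

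The liver makes most proteins of the blood plasma, among them carriers of lipids and metals, clotting factors and, in maturing female fish, egg yolk precursors, and it also holds the main enzymes of sugar, lipid and nitrogen metabolism. A short list of such transcripts commonly fills much of a liver library. Growth, feeding and maturation are known to shift that list, and BPA is known to act on oestrogen receptors, which control yolk precursor genes in the fish liver. The deposited tables name genes by identifier, and 0 of 46585 identifiers matched the reference gene table used here, so that roles, positions and sequences of the 100 genes are not given and the liver label was not checked against marker genes.

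The 100 genes made up 0.215% of the genes and 34.8% ± 4.13 (SD, n = 16) of the fragments of the Control fish by which they had been selected. They held 34.1% ± 3.15 (SD, n = 32) of the fragments in the BPA4 and BPA40 fish, which took no part in the choice. In whole liver a level is set both by how many cells of a type there are and by the RNA in each, and these cannot be told apart. When the 100 genes were chosen on those 32 fish instead, 92 of them were the same. The 10 leading genes held 8.09% of the fragments on average in the Control fish. Abundance fell off slowly along the list, from a mean of 11060 CPM for the first gene to 1616 CPM for the last, a 6.85-fold range.

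**Figure D1:**
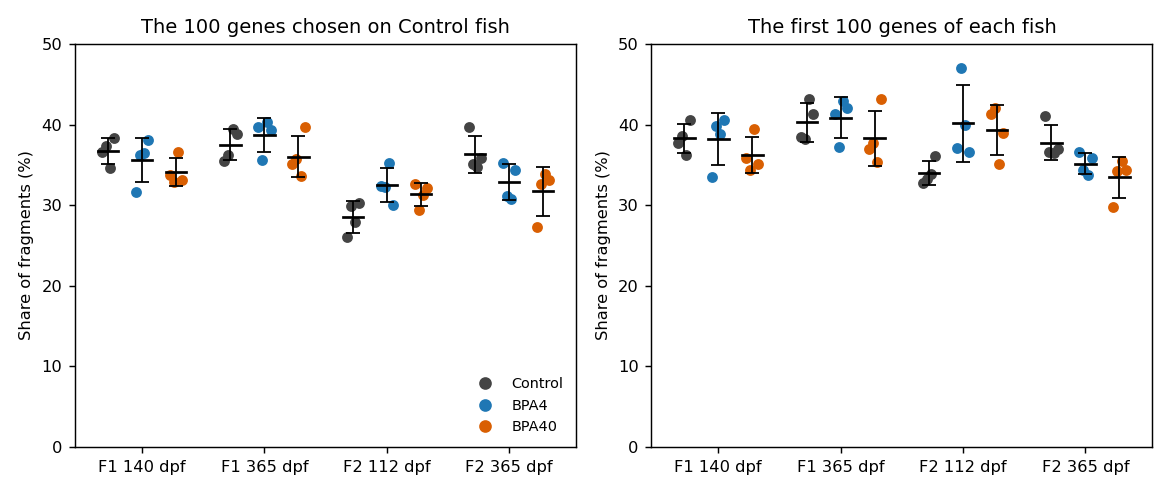
Share of all fragments (%) held by the 100 genes chosen on Control fish (left) and by the first 100 genes of each fish itself (right), for 12 groups of 4 fish. Each point is a fish, horizontal lines are group means and bars are 1 SD; on the left the F2 112 dpf Control fish lie between 26.1% and 30.2%, below all other Control fish.

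Among the genes kept, no single gene dominated, which says nothing of the 17 genes left out. GSONMT00064112001 ranked first, with 11060 ± 2209 CPM in the Control fish and 10743 CPM in the BPA fish, which is 1.11% of the Control fragments. GSONMT00049136001 followed with 10742 ± 2838 CPM and GSONMT00063041001 with 9630 ± 3902 CPM (SD, n = 16 Control fish). The next were GSONMT00013866001, GSONMT00051732001, GSONMT00019921001, GSONMT00062425001, GSONMT00015050001, GSONMT00018754001 and GSONMT00032415001, from 7913 down to 6343 CPM. All 10 ranked among the first 100 genes in each of the 12 groups. The leader changed between time points. GSONMT00064112001 or GSONMT00049136001 led in the F1 140 dpf and F2 365 dpf groups, whereas GSONMT00063041001 led in the F1 365 dpf Control and BPA4 fish (14580 ± 4275 and 13817 ± 3471 CPM) and GSONMT00062425001 in the F1 365 dpf BPA40 fish (12141 ± 2773 CPM). GSONMT00051732001 led in all 3 groups at F2 112 dpf, at 8756 ± 1035 CPM in Control, 17187 ± 5660 CPM in BPA4 and 14727 ± 5372 CPM in BPA40 fish.

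The lower end of the list was not sharply bounded. GSONMT00003188001, GSONMT00031282001 and GSONMT00049322001 were the last genes inside, with 1631, 1629 and 1616 CPM, and GSONMT00052298001, GSONMT00033208001 and GSONMT00002192001 were the first outside, with 1610, 1607 and 1601 CPM. The SD over the 16 Control fish ranged from 208 to 1516 CPM for these 6 genes, far more than the steps between them. The choice was by fragments, of which a longer transcript gives more per molecule. Transcript length relative to the median gene, read from the ratio of fragments to the authors' FPKM (fragments scaled to transcript length and to depth), ranged from 0.0945 to 6.08 among the 100 genes, and 62 of them were shorter than the median of the 9326 genes that reached 10 fragments in each fish. By mean FPKM, which corrects for length, 59, 62, 39 and 62 of the 100 genes were among the first 100 at F1 140, F1 365, F2 112 and F2 365 dpf, and 31 were so at all 4 time points.

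The 17 genes left out include some of the most abundant in the liver. Of these, 3, GSONMT00017102001, GSONMT00022242001 and GSONMT00038493001, were marked in all 12 groups. Where the other 14 were not marked, their group means lay between 0.0536% and 1.94% of the fragments, and 13 passed 1% in at least 1 group. The highest group mean of any of the 100 genes was 1.72%, that of GSONMT00051732001 in the F2 112 dpf BPA4 fish. The shares given here therefore describe the transcriptome without these genes.

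In the Control fish, the share of the 100 genes was lowest at F2 112 dpf. It was 36.6%, 37.4%, 34.6% and 38.3% at F1 140 dpf and 35.5%, 36.3%, 39.5% and 38.8% at F1 365 dpf. The younger F2 fish had 26.1%, 30.0%, 27.9% and 30.2%, and the older ones 39.7%, 35.1%, 34.7% and 35.8%. All 4 Control fish of F2 112 dpf were thus below the other 12, a description without a test because the Control fish chose the genes.

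In the BPA fish the ages overlapped. The share of the BPA4 fish was 31.6%, 36.2%, 36.4% and 38.1% in F1 at 140 dpf, followed by 39.7%, 35.7%, 40.3% and 39.3% at 365 dpf. That of the BPA40 fish was 33.8%, 32.9%, 36.6% and 33.2% in F1 at 140 dpf, followed by 35.1%, 35.7%, 33.7% and 39.6% at 365 dpf. In F2 the younger and the older BPA4 fish had means of 32.5% ± 2.15 and 32.9% ± 2.27, and the BPA40 fish 31.3% ± 1.42 and 31.7% ± 3.02 (SD, n = 4 each). The older fish were thus higher by 3.14 and 1.91 percentage points in F1 and by 0.375 and 0.386 points in F2 (BPA4 and BPA40), with overlap each time.

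Over all 12 fish a time point, the share at 365 dpf exceeded that of the younger fish by 1.94 points in F1 and 2.84 points in F2. Both signs depended on the marked genes, of which 10, 14, 8 and 14 were marked in the tables of F1 140, F1 365, F2 112 and F2 365 dpf. With each left out only in the tables that mark it, and the 100 genes chosen anew, the differences were -1.94 and -1.51 points. By that setting more genes were removed from the older fish than from the younger ones. The sign in F2 also turned with the length of the list, to -0.85 points over the 200 most abundant genes. Without F2 365 dpf Control replicate 0 the difference in F2 was 2.47 points.

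At 365 dpf the share of the BPA fish was lower in F2 than in F1. The difference was -5.87 points in BPA4, where the 4 F2 fish (30.7% to 35.3%) did not overlap the 4 F1 fish (35.7% to 40.3%), and -4.30 points in BPA40, where they overlapped. In the Control fish it was -1.20 points, or -2.32 points without F2 365 dpf Control replicate 0, with overlap. As a share of summed FPKM, which corrects for length, the differences were -6.45 points in BPA4, -4.50 points in BPA40 and 0.89 points in Control, so that the direction in Control depended on the unit. F1 and F2 were reared at different times, so generation cannot be told apart from cohort or tank.

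Against Control, the share differed by -1.14 points in BPA4 and -2.62 points in BPA40 at F1 140 dpf. At F1 365 dpf the differences were 1.24 and -1.48 points. At F2 112 dpf they were 3.96 points in BPA4 and 2.80 points in BPA40, and at F2 365 dpf -3.43 and -4.58 points. The SD between fish of a group, pooled over the 12 groups, was 2.19 points. The groups overlapped in 7 of these 8 comparisons. The exception was F2 365 dpf BPA40, where the highest fish (33.9%) was below the lowest Control fish (34.7%). One of the BPA40 fish, replicate 0, was at 27.3%, and without it the group was at 33.2% ± 0.608 (SD, n = 3). Without F2 365 dpf Control replicate 0 the differences at F2 365 dpf were -2.31 points in BPA4 and -3.46 points in BPA40. In shares of summed FPKM the 8 differences kept their signs and lay between -5.55 and 3.19 points, with the smallest, -0.16 points, in F1 365 dpf BPA40. Because the list was chosen on Control fish, which share in the mean that selected it, these differences from Control lean on the choice. BPA40 and BPA4 fish, which do not, differed by -1.49, -2.71, -1.16 and -1.15 points at the 4 time points, with the fish overlapping each time.

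In the BPA fish of F2, gains and losses within the list were far larger than the change of its sum. Between 112 and 365 dpf in BPA4, 55 genes had a higher mean CPM and together gained 11.1 percentage points of the transcriptome, and 45 had a lower one and summed to -10.7 points, so that the sum moved by 0.375 points. In BPA40, 57 genes gained 9.84 points and 43 summed to -9.45 points. As a share of summed FPKM the sum rose by more, by 1.25 points in BPA4 and 2.27 points in BPA40. In the F1 fish the gains were 8.34 and 8.30 points in BPA4 and BPA40 and the losses -5.20 and -6.38 points. Mean CPM was more than 4-fold higher at 365 than at 112 dpf for 17 genes in BPA4 and 16 in BPA40, and more than 4-fold lower for 4 and 3. In F1 these counts were 4 and 7 higher and 0 and 1 lower. Such counts are not given for all genes, so they do not show whether large rises were more common in the list. Scaled by library size alone, as CPM is, the median log2 change with age in F2 was 1.42 in BPA4 and 1.56 in BPA40 over all genes tested. Over the genes of the list it was 0.15 and 0.16. In the Control fish of F2 the gains, 13.4 points over 63 genes, exceeded the losses, -5.67 points over 37 genes.

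**Figure D2:**
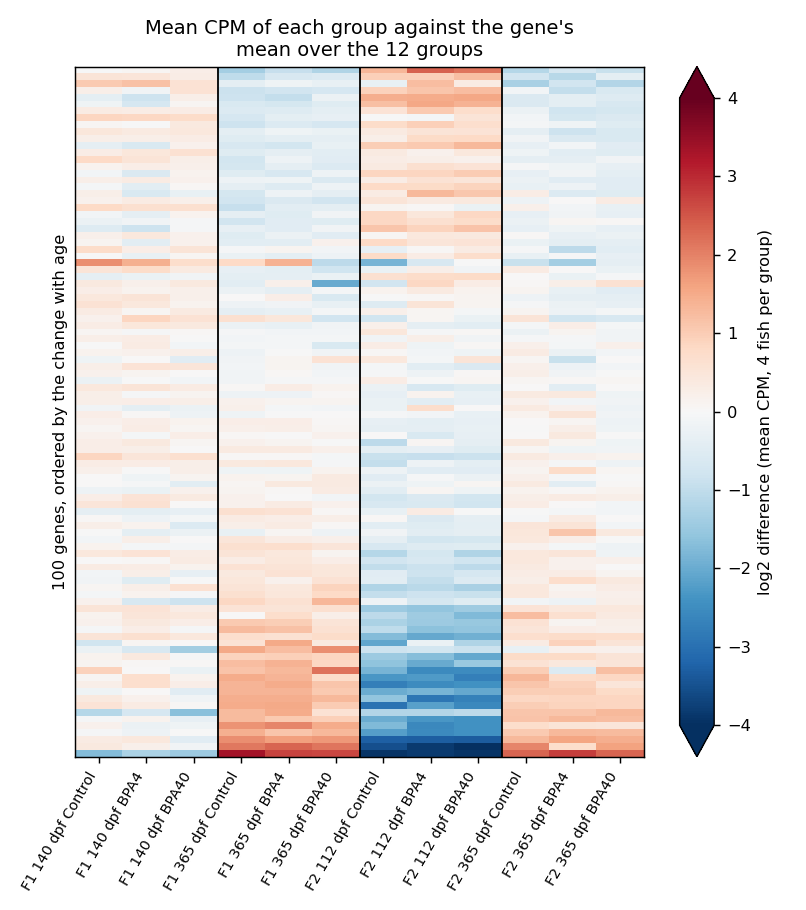
Mean CPM of each of the 100 genes (rows) in 12 groups of 4 fish (columns) as the log2 difference from the gene's mean over the groups, red for higher and blue for lower. The 3 columns of F2 112 dpf differ most from the rest, with dark blue rows at the bottom (genes that were low at that age) and red rows at the top.

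Membership of the list was also lowest at F2 112 dpf. The list was chosen on a mean over Control fish of all 4 time points. A time point unlike the others thus holds fewer of its genes by the choice itself, and this is no separate evidence of a break. Of the first 100 genes of each group, 83 to 87 belonged to the list at F1 140 dpf, 79 to 84 at F1 365 dpf and 83 to 88 at F2 365 dpf, but 66, 66 and 62 did so in Control, BPA4 and BPA40 at F2 112 dpf. In total 40 of the 100 genes were among the first 100 in all 12 groups, and 12 were so in the 9 other groups and in none at F2 112 dpf. In their place, 26 genes from outside the list were among the first 100 in all 3 groups at F2 112 dpf, where they held 7.37% of the fragments on average, against 2.21% at F2 365 dpf. These 26 genes were picked by their high levels at F2 112 dpf, so a higher share there follows in part from the choice. The first 100 genes of each fish itself held 32.7% to 47.0% of its fragments at that age and 29.7% to 41.0% at F2 365 dpf.

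The lowest-ranked gene of the list in all 6 groups of the younger fish was GSONMT00077640001, at rank 560 to 746 at F1 140 dpf and rank 2348 to 2761 at F2 112 dpf. It was the gene with the strongest rise with age. In the 24 younger fish it was at 20.3 to 523 CPM, below the 1616 CPM of the last gene of the list. It thus reached the list through the older fish, and the choice favours a rise in BPA fish of the same ages. At F1 140 dpf its levels were 316, 127, 362 and 272 CPM in BPA4 and 105, 523, 144 and 169 CPM in BPA40. At F1 365 dpf they were 2070, 3752, 6297 and 4723 CPM in BPA4 and 3492, 4040, 1379 and 7311 CPM in BPA40. The groups did not overlap, and the fitted log2 change was 3.93 ± 0.57 (SE) in BPA4 and 4.14 ± 0.58 in BPA40 (edgeR quasi-likelihood test, adjusted p = 0.000403 and 0.000199).

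In F2 the span was wider still. GSONMT00077640001 was at 59.8, 39.6, 37.4 and 42.2 CPM in BPA4 and at 35.9, 36.8, 54.7 and 42.2 CPM in BPA40 at 112 dpf. By 365 dpf it was at 5305, 5032, 2051 and 4925 CPM in BPA4 and at 2311, 2860, 4571 and 3178 CPM in BPA40. Mean CPM was thus 96.8-fold higher in BPA4 and 76.2-fold higher in BPA40, and the fitted log2 changes were 5.70 ± 0.64 and 5.25 ± 0.63 (adjusted p = 1.23e-07 and 2.62e-07). The age change was larger in F2 than in F1 by 1.75 ± 0.76 log2 units in BPA4 and 1.11 ± 0.76 in BPA40, which did not pass the test (adjusted p = 0.0652 and 0.274) and did by library size alone (2.63 and 2.14, adjusted p = 0.00719 and 0.0277).

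Age changes were tested in the BPA4 and the BPA40 fish only, since the Control fish had chosen the genes, with edgeR's quasi-likelihood test on fragment counts of all genes and adjustment over all genes (Benjamini-Hochberg, threshold 0.05). This does not remove all dependence on the choice. A gene low at one age in the Control fish entered the list only if it was high at another. The choice thus favours age changes of such genes in BPA fish of the same ages as well. All 100 genes passed the filter on low counts in every fit. In F1, 12 of the 100 genes rose with age in BPA4 and 16 fell, where 13.3% of the 24815 genes tested rose and 12.1% fell. In BPA40, 16 rose and 26 fell, against 21.7% and 17.3% of all genes. In F2, 19 rose and 51 fell in BPA4, against 40.0% and 28.2% of 26036 genes, and 16 rose and 57 fell in BPA40, against 39.9% and 28.1%. The median log2 change of the 100 genes was -0.14 and -0.22 in F1 and -0.77 and -0.89 in F2, beside 0.06 and 0.09 in F1 and 0.52 and 0.56 in F2 over all genes tested.

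The balance of rises and falls depended on the scaling between libraries in F2, and on the filter on low counts in both generations. In F2, scaled by library size alone, as CPM is, 39 genes rose and 25 fell in BPA4 and 31 rose and 27 fell in BPA40. Over all genes, 14545 rose and 3804 fell in BPA4, and 15327 rose and 3310 fell in BPA40. The median log2 change of the 100 genes was 0.15 and 0.16 while that of all genes was 1.42 and 1.56. With the relative log expression factors of DESeq2 the counts were 28 and 37 in BPA4 and 23 and 33 in BPA40. Over all genes they were 12821 and 5628 in BPA4 and 12927 and 5562 in BPA40, with medians of 1.00 and 1.03. Under these scalings and TMM (trimmed mean of M values, the main one), the median of the 100 genes minus that of all genes stayed between -1.27 and -1.46. When a gene had to reach 10 fragments in each fish to be kept, the TMM factors moved as well. The median of all genes was then -0.01 and 0.00 and that of the list 0.25 and 0.15. Of the list, 39 rose and 23 fell in BPA4 and 31 and 27 in BPA40. Of all genes kept, 2980 rose and 2978 fell in BPA4 and 2996 and 2945 in BPA40. In F1 under that filter, 13 of the list rose and 10 fell in BPA4 and 21 and 13 in BPA40. Of all genes kept in F1, 1695 rose and 1458 fell in BPA4 and 2805 and 2060 in BPA40. The F1 medians were then 0.042 and 0.009 for the list and -0.002 and 0.024 for all genes. Genes with at least 5 fragments numbered 14633 to 21312 per fish at F2 112 dpf and 24567 to 30117 at F2 365 dpf, and the part of this in the shift was not tested. Under TMM, relative log expression, library size and TMM computed without the 100 genes, 19 genes rose and 25 fell in F2 BPA4 each time, and 16 rose and 27 fell in F2 BPA40. In F1 the same counts were 12 and 14 in BPA4 and 15 and 20 in BPA40. Counts under all of these scalings are not given for all genes, so they do not show whether the list differed from other genes.

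**Figure D3:**
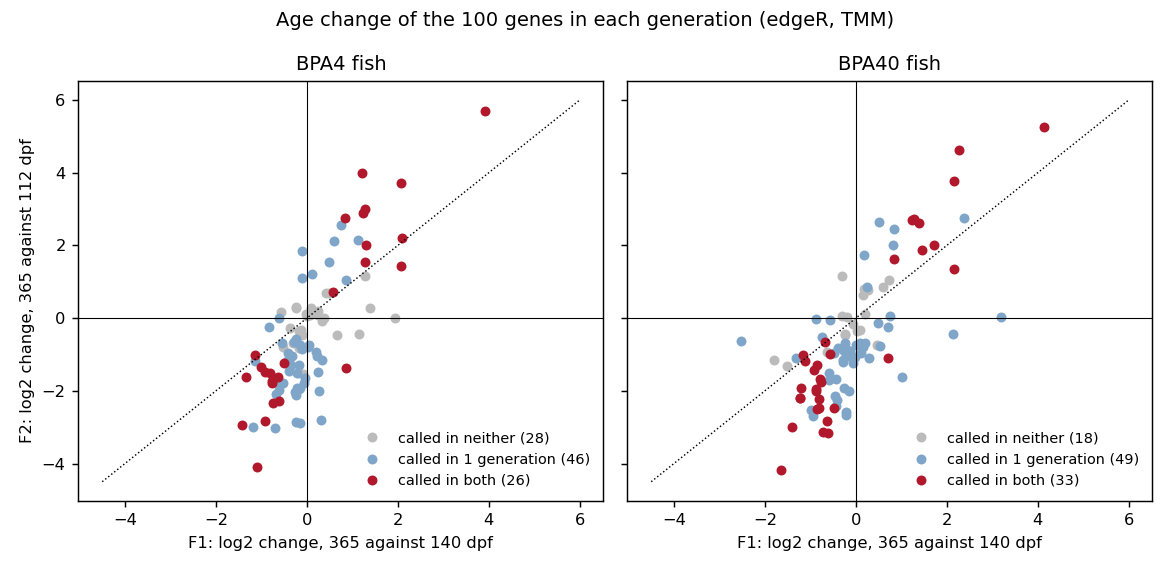
Log2 change with age of each of the 100 genes in F1 (365 against 140 dpf, horizontal axis) and F2 (365 against 112 dpf, vertical axis), fitted with edgeR after TMM scaling, for BPA4 (left) and BPA40 fish (right); the dotted line marks equal change. In BPA4, 26 genes were called in both generations, and in BPA40, 33, nearly all of them with the same sign in both, and most lie farther from 0 on the F2 axis.

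The generations, which share no fish, changed in the same direction for most genes called in both. In BPA4, 11 genes rose and 14 fell in both generations and 1 rose in F1 and fell in F2. In BPA40, 10 rose and 22 fell in both and 1 rose in F1 and fell in F2. Among the 24359 genes tested in both generations, 11.6% rose in both and 8.95% fell in both in BPA4, and 19.1% and 13.8% did so in BPA40. The genes called in opposite directions numbered 123 in BPA4 and 104 in BPA40. Across the 100 genes, the F1 and F2 changes had a Pearson r of 0.77 in BPA4 and 0.75 in BPA40, and across all genes 0.65 and 0.73. Genes are not independent replicates, and these values are descriptive.

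In all, 9 of the 100 genes rose and 11 fell in each of the 4 age comparisons, where 9.44% and 7.19% of the 24359 genes did so. The 8 with the largest mean rise were GSONMT00077640001, GSONMT00038205001, GSONMT00003188001, GSONMT00023854001, GSONMT00068278001, GSONMT00022557001, GSONMT00044276001 and GSONMT00020946001, and all 9 were called in the same direction under each of the 4 scalings. The 8 with the largest mean fall were GSONMT00007417001, GSONMT00019922001, GSONMT00057219001, GSONMT00019921001, GSONMT00027814001, GSONMT00064895001, GSONMT00079711001 and GSONMT00051190001. Of the 11 that fell, 6 kept all 4 calls under each scaling. GSONMT00057219001 and GSONMT00064895001 were not called in F2 BPA4 by library size alone. The F1 BPA4 calls were the least stable: with 1 of the 8 fish left out in turn they were kept in all 8 fits for 7 of the 16 named genes, and in 2 to 7 fits for the other 9.

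GSONMT00003188001, the gene at rank 98, reached the list through the older fish. In BPA4 it was at 1211, 488, 1391 and 1582 CPM at F1 140 dpf and at 3199, 2210, 2188 and 3436 CPM at F1 365 dpf. In F2 BPA4 it went from 109, 33.2, 111 and 100 CPM to 2420, 1768, 3610 and 2601 CPM. None of these age groups overlapped. The log2 change was 1.21 ± 0.34 in F1 (adjusted p = 0.0144, edgeR) and 3.99 ± 0.37 in F2 (adjusted p = 1.44e-08), and the difference between generations, 2.76 ± 0.47, passed the test (adjusted p = 2.20e-05), as it did in BPA40 (1.61 ± 0.47, adjusted p = 0.00874; 3.64 and 2.61 by library size). The call in F1 BPA4 was lost with 1 of 8 fish left out, at an adjusted p of 0.0575. At F2 365 dpf the BPA40 fish lay close together at 2367, 2422, 2463 and 2431 CPM.

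GSONMT00023854001 and GSONMT00044276001 rose together. Mean CPM of GSONMT00023854001 in BPA4 went from 1518 ± 449 to 3833 ± 561 in F1, and from 299 ± 154 to 4351 ± 714 in F2 (SD, n = 4). Its fitted log2 change was 1.28 ± 0.31 in F1 and 3.00 ± 0.40 in F2 (adjusted p = 0.00754 and 1.03e-06, edgeR). Deviations of the 2 genes from their group means over the 32 BPA fish had a Pearson r of 0.89. GSONMT00038205001 rose 23.3-fold in mean CPM in F2 BPA4 and 48.0-fold in F2 BPA40, and GSONMT00068278001 rose 13.5-fold and 11.7-fold.

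The calls of GSONMT00022557001 and GSONMT00020946001 rested more on single fish. That of GSONMT00022557001 in F1 BPA40 rested on 1 high fish at 365 dpf, replicate 3, where the levels were 1716, 2056, 741 and 9056 CPM against 586, 1410, 846 and 1459 CPM at 140 dpf. Its log2 change of 1.71 (adjusted p = 0.0241, edgeR) was 0.35 (adjusted p = 0.545) without that fish, and 5 of the 8 fits with 1 fish left out kept the call. GSONMT00020946001 was called in F2 BPA40 in 4 of 8 such fits.

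GSONMT00007417001 had the largest fall in F2. At F2 112 dpf it was at 4950, 18610, 4382 and 8514 CPM in BPA4 and at 5963, 11294, 2391 and 11640 CPM in BPA40. At F2 365 dpf it was at 788, 1023, 1827 and 748 CPM in BPA4 and at 934, 883, 788 and 1179 CPM in BPA40. The ages did not overlap, and mean CPM was 8.31-fold and 8.27-fold lower at 365 dpf. The fitted log2 change was -4.09 ± 0.59 and -4.17 ± 0.60 (adjusted p = 3.07e-06 and 2.67e-06, edgeR) and -3.05 in both treatments by library size alone.

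In F1 the fall of GSONMT00007417001 was smaller, with a mean CPM 1.99-fold lower at 365 dpf in BPA4 and 2.78-fold lower in BPA40 (log2 change -1.09 ± 0.28 and -1.65 ± 0.28, adjusted p = 0.00979 and 0.000542). The difference between generations passed the test in BPA4 (-3.01 ± 0.63, adjusted p = 0.000296) and BPA40 (-2.51 ± 0.63, adjusted p = 0.00269), and was -2.06 and -1.57 by library size, where it passed as well. The fish with 18610 CPM, F2 112 dpf BPA4 replicate 1, had the fewest fragments and the fewest genes with at least 5 fragments (14633) of all 48.

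GSONMT00027814001 fell with the least scatter. Its levels in BPA4 were 3599, 4452, 4005 and 4095 CPM at F1 140 dpf, 3048, 2676, 2646 and 2978 CPM at F1 365 dpf, 3963, 4670, 5066 and 4376 CPM at F2 112 dpf and 1941, 1470, 2038 and 1664 CPM at F2 365 dpf. In all 48 fish together, each of the 24 younger fish (3526 to 5177 CPM) was above each of the 24 older fish (1470 to 3048 CPM). The log2 change in F2 was -2.29 ± 0.26 in BPA4 and -2.23 ± 0.26 in BPA40 (adjusted p = 1.59e-07 and 2.28e-07, edgeR), or -1.34 and -1.16 by library size. Its call in F1 BPA4 (-0.61 ± 0.19, adjusted p = 0.0257) was kept in 4 of 8 fits with 1 fish left out.

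GSONMT00019921001 and GSONMT00019922001, whose identifiers are consecutive, fell together. GSONMT00019921001 went from 12422 ± 3496 to 4859 ± 722 CPM in F2 BPA4 and GSONMT00019922001 from 5814 ± 1621 to 1608 ± 419 CPM. Their deviations from the group means had an r of 0.83 over 32 BPA fish. Whether such pairs are near-identical copies between which fragments could be split is not given in the sources used here, so their separate levels are uncertain. The calls of GSONMT00019921001 in F1 were near the threshold, with adjusted p = 0.0432 in BPA4 and 0.0215 in BPA40 (edgeR) and overlapping ages. It was called in 2 and 5 of the 8 fits with 1 fish left out.

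Among the leading genes outside these sets, GSONMT00051732001 changed with age in F2 and was not called in F1. In F2 BPA4 it went from 13856, 25299, 16767 and 12826 CPM to 7710, 2700, 4335 and 4536 CPM, without overlap (log2 change -2.81 ± 0.50, adjusted p = 3.72e-05, edgeR). In F1 its log2 change was 0.31 ± 0.40 in BPA4 and -0.21 ± 0.40 in BPA40 (adjusted p = 0.582 and 0.685). GSONMT00062425001 moved the other way in F2, from 3940, 2168, 3544 and 2857 CPM to 7587, 7242, 6092 and 7346 CPM in BPA4. Its rise was called by library size (1.18, adjusted p = 0.00121) and not with TMM (0.27 ± 0.30, adjusted p = 0.434). GSONMT00064112001, the first gene, was at 8217 ± 2353 and 11221 ± 2806 CPM at the 2 ages in F2 BPA4 and at 8463 ± 954 and 9343 ± 989 CPM in BPA40. Its log2 change in BPA40 was -0.89 (adjusted p = 0.00418) with TMM and 0.15 (adjusted p = 0.568) by library size, so that its direction depended on the scaling.

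The age change itself differed between generations for 41 genes in BPA4, with 9 more positive and 32 more negative in F2, where 21.4% and 16.4% of 26903 genes tested were so. In BPA40 it did for 40 genes, 7 and 33, against 15.0% and 13.7%. By library size the split turned to 25 and 15 in BPA4 and 24 and 12 in BPA40. Over all genes it was then 10986 and 1780 in BPA4 and 10535 and 1188 in BPA40. With TMM and at least 10 fragments in every fish, the split was 20 and 17 in BPA4 and 15 and 17 in BPA40. Over all genes kept by that filter it was 2163 and 2061 in BPA4 and 1873 and 1706 in BPA40. Under all 4 scalings 9 and 15 genes were called in BPA4 and 7 and 12 in BPA40, and such counts are not given for all genes. The early ages also differ, 140 against 112 dpf, so that generation and early age cannot be told apart here. The smallest adjusted p belonged to GSONMT00076978001, a gene chosen after its values were seen, at 1887, 1754, 1579 and 1483 CPM in BPA4 at F1 140 dpf and 4819, 5315, 5449 and 6393 CPM at F2 112 dpf. At 365 dpf it was at 1955, 2018, 2174 and 2428 CPM in F1 and 2492, 3102, 2049 and 2884 CPM in F2. The difference between the age changes was -2.27 ± 0.35 in BPA4 and -2.35 ± 0.35 in BPA40 (adjusted p = 6.25e-06 and 9.02e-06, edgeR), or -1.42 and -1.41 by library size, where it passed as well.

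At 365 dpf the median of the 100 genes was lower in F2 than in F1, and few single genes passed the test of edgeR. The generations were reared at different times, and F2 in 1 tank per treatment, so generation, cohort and tank cannot be told apart here. The median log2 difference over the 100 genes was -0.42 in BPA4 and -0.43 in BPA40, beside 0.03 and -0.01 over all genes. By library size the medians were -0.11 and -0.17, beside 0.35 and 0.25. In BPA4, 0 of the 100 genes were higher in F2 and 5 were lower, where 2.62% and 1.84% of 27072 genes were called. By library size 2 of the 100 genes were higher and 4 lower, beside 2504 and 231 of all genes. In BPA40 the counts with TMM were 0 and 0, against 1.24% and 0.428%. At an unadjusted p under 0.05 were 33 of the 100 genes in BPA4 and 36 in BPA40, beside 21.8% and 15.3% of all genes. DESeq2 called 16 in BPA4 and 6 in BPA40, all lower, where it called 3.67% and 1.34% of all genes as lower and 4.41% and 2.53% as higher.

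None of the 5 genes was called in BPA40, and the difference between treatments was not tested. They were chosen after their values were seen. GSONMT00032415001, the tenth gene, was at 7694, 5933, 6766 and 4262 CPM in F1 BPA4 and at 3298, 1832, 3153 and 2987 CPM in F2 BPA4, without overlap (log2 difference -1.44 ± 0.27, adjusted p = 0.00942, edgeR). In BPA40 it was at 5376 ± 718 and 4318 ± 930 CPM (-0.58 ± 0.26, adjusted p = 0.295). GSONMT00027814001, the steady gene above, had a log2 difference of -0.99 ± 0.19 in BPA4 (adjusted p = 0.0105) and GSONMT00069049001 one of -0.86 ± 0.21 (adjusted p = 0.0231). In BPA40 they had -0.62 and -0.63 (adjusted p = 0.0913 and 0.122). GSONMT00069049001 was called in 5 of 8 fits with 1 fish left out. GSONMT00015052001 and GSONMT00068278001 were close to the threshold (adjusted p = 0.0487 and 0.0479) and were called in 1 and 2 of those 8 fits.

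Of the comparisons between treatments, only those of BPA40 with BPA4 involve no fish by which the genes had been chosen. In these 4 comparisons (F1 140, F1 365, F2 112 and F2 365 dpf), edgeR called 0 of the 100 genes each time, against 0.00949%, 0%, 0% and 0% of all genes. These counts do not show that the treatments were alike. In data simulated for the F1 BPA40 age comparison, the test found 9 of 200 genes changed by 1 log2 unit. Those 200 were drawn from all genes tested, so this is not the rate for the 100 abundant genes. The treatment fits, with 12 fish each, were not simulated. At an unadjusted p under 0.05 were 11, 11, 2 and 6 of the 100 genes, beside 10.9%, 8.27%, 2.76% and 8.69% of all genes. DESeq2 called 1 of the 100 genes at F1 140 dpf and 1 at F1 365 dpf, beside 0.905% and 0.382% of all genes, and 0 at F2 112 and F2 365 dpf.

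The 2 genes called by DESeq2 were not called by edgeR. GSONMT00007231001 at F1 140 dpf was at 1949, 2179, 1398 and 1477 CPM in BPA4 and at 4126, 3172, 4491 and 2941 CPM in BPA40, without overlap (1.04 ± 0.29, adjusted p = 0.262 with edgeR and 0.0474 with DESeq2). GSONMT00015052001 at F1 365 dpf was at 11274, 4497, 2866 and 13437 CPM in BPA4 and at 557, 1468, 1035 and 2815 CPM in BPA40 (-2.49 ± 0.71, adjusted p = 0.430 and 0.0385).

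The 8 comparisons with Control are a description, because the Control fish chose the genes and a choice by high Control levels favours values below Control in the BPA fish. The median log2 difference of the 100 genes ranged from -0.31, for BPA40 against Control at F2 365 dpf, to 0.22, for BPA40 against Control at F2 112 dpf. In all 8, 0 of the 100 genes were called by edgeR, where 0.00475% of all genes were called for BPA40 at F1 140 dpf, 0.00380% for BPA4 and 0.399% for BPA40 at F2 365 dpf, and 0% in the other 5, and nothing is read from these counts. At F2 112 dpf, GSONMT00082016001 was at 287, 730, 443 and 727 CPM in Control and at 2591, 1230, 2688 and 1221 CPM in BPA4 fish, and GSONMT00052017001 was at 3145, 3845, 2165 and 3507 CPM in Control and at 5297, 10373, 12085 and 8681 CPM in BPA4 fish. At F2 365 dpf, GSONMT00052000001 was at 6583, 7474, 5829 and 5494 CPM in Control and at 4230, 2348, 3774 and 2669 CPM in BPA4 fish. These 3 genes, in which the groups did not overlap, were picked with their values known.

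The median spread between fish of one group was close to that of the well-counted genes. The coefficient of variation (CV) within a group, averaged over the 8 BPA groups, had a median of 25.2% over the 100 genes and 24.4% over the 9326 well-counted genes above. Of the 100 genes, 32 had a mean CV under 20% and 11 one over 50%, beside 26.9% and 3.42% of those 9326 genes. In the Control groups the median over the 100 genes was 21.9%.

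**Figure D4:**
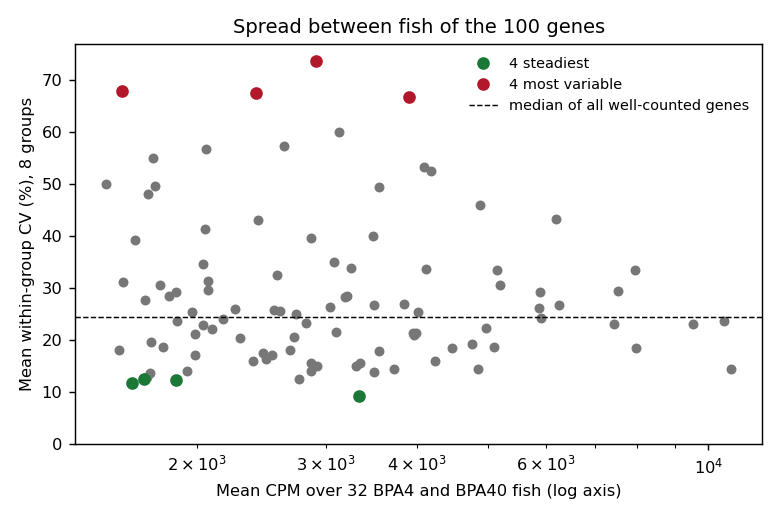
Mean within-group CV (%, over 8 groups of 4 BPA4 or BPA40 fish) of the 100 genes against their mean CPM over these 32 fish (log axis). The 4 steadiest genes (green) lie near 10% and the 4 most variable (red) between 66.7% and 73.6%, and the dashed line is the median of the 9326 well-counted genes.

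The steadiest genes were GSONMT00027814001 (mean CV 9.16%), GSONMT00057778001, GSONMT00076185001 and GSONMT00072520001. GSONMT00076185001 was also level over the whole series, from 1266 to 2636 CPM in the 48 fish. GSONMT00057778001 and GSONMT00072520001 were steady within groups and higher at F2 112 dpf, where the BPA40 fish had 2775, 3431, 2408 and 2400 CPM of GSONMT00057778001, against 1222, 1115, 1230 and 1372 CPM at F2 365 dpf.

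The most variable were GSONMT00012878001 (73.6%), GSONMT00049946001, GSONMT00027710001 and GSONMT00015052001. GSONMT00012878001 was at 4527, 5.63, 566 and 655 CPM in the F1 140 dpf BPA4 fish, and the lowest of these values rests on 63 fragments, the fewest of any of the 100 genes in any fish. It was at 8577, 5299, 13304 and 5292 CPM in the F1 365 dpf BPA40 fish. GSONMT00027710001 was at 1571, 262, 48.3 and 122 CPM in that group and at 2519, 3012, 2151 and 4734 CPM in the F2 365 dpf BPA40 fish. GSONMT00015052001 ranged from 46.9 to 16563 CPM over the 48 fish, a 353-fold range, whereas GSONMT00015050001, a leading gene with a nearby identifier, ranged 6.96-fold and shared little of its deviations (r = 0.21, 32 BPA fish).

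Some of the 100 genes rose and fell together from fish to fish within groups. Of the 4950 pairs, 57 had a Pearson r above 0.8 and 6 one below -0.8 over the 32 BPA fish, with a median of 0.09. All these fish share the scaling to their library, and the values are descriptive. The closest pairs were GSONMT00011511001 with GSONMT00071754001 (r = 0.90) and GSONMT00064112001, the first gene, with GSONMT00080766001 (r = 0.90). The most opposed were GSONMT00007231001 and GSONMT00044276001 (r = -0.86). GSONMT00007231001 was also opposed to GSONMT00055665001 (r = -0.84) and GSONMT00023854001 (r = -0.79), and moved with GSONMT00041640001 (r = 0.89).

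GSONMT00055665001 and GSONMT00007231001 also moved apart with age in F2. GSONMT00055665001 was at 1689, 558, 1807 and 1259 CPM in BPA4 at F2 112 dpf and at 5679, 4047, 5572 and 5672 CPM at F2 365 dpf, and GSONMT00007231001 went from 6094, 13353, 6989 and 8169 CPM to 2256, 2780, 1975 and 2383 CPM (log2 change 1.09 ± 0.28 and -2.86 ± 0.40, adjusted p = 0.00151 and 1.63e-06, edgeR). Among the 4 younger BPA4 fish, the one with the lowest level of the first gene also had the highest of the second. That fish, replicate 1, had the fewest fragments and the fewest genes with at least 5 fragments of all fish.

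One older fish resembled the younger ones. The summed share of the 9 genes that rose with age was 3.51% ± 0.80 in 23 of the 24 fish of 365 dpf (SD), from 1.99% to 5.10%, and 0.0700% to 1.56% in the 24 younger fish. In F2 365 dpf Control replicate 0 it was 1.22%. The summed share of the 11 genes that fell was 2.01% to 3.15% in the 23 older fish and 3.72% to 6.88% in the younger ones, and 4.53% in this fish. It lay inside the range of the younger fish on both counts.

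**Figure D5:**
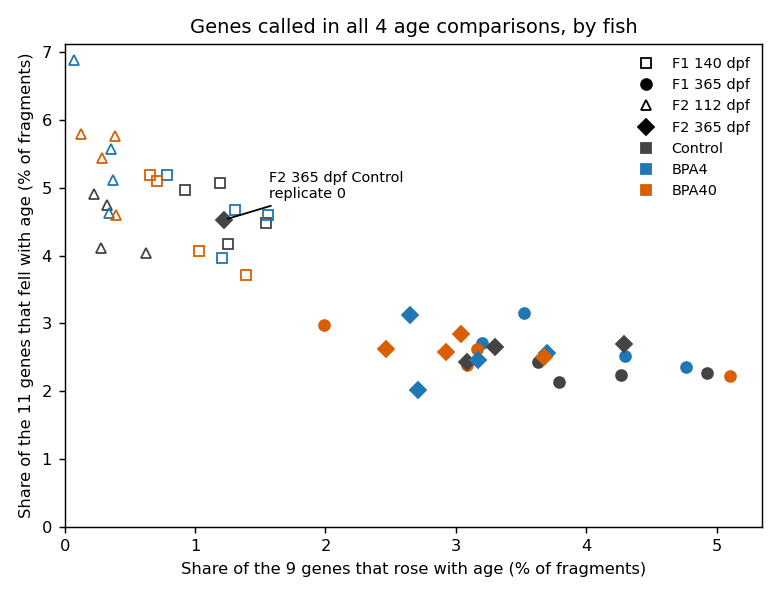
Summed share (% of fragments) of the 9 genes that rose with age (horizontal axis) and of the 11 that fell (vertical axis) in each of the 48 fish; open symbols are the younger and filled symbols the older fish, and colours are treatments. The older fish lie at lower right and the younger at upper left, and F2 365 dpf Control replicate 0 lies among the F1 140 dpf fish at 1.22% and 4.53%.

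The age calls were made in BPA fish, and this Control fish was in none of the groups compared. It entered the calls only through the filter on low counts, the TMM factors and the shared estimate of the spread. It was 1 of the 16 Control fish that chose the 100 genes. The BPA fish that made the calls are among the younger and older fish it is set against. Part of the gap between ages in these 20 genes therefore follows from the choice. In 13 of the 20 genes its level lay farther toward the younger fish than in any of the 23 other older fish, and no other fish of 365 dpf held that place for more than 2 genes. Against the other 3 Control fish of its group this was so for 18 of 20 genes. GSONMT00077640001 was at 173 CPM in this fish and at 4474, 3362 and 4857 CPM in the others of its group. GSONMT00023854001 was at 1270 CPM against 4339, 4119 and 4828 CPM, GSONMT00019922001 at 4104 CPM against 1488, 2120 and 1874 CPM, and GSONMT00051732001, the leader at F2 112 dpf, at 18287 CPM against 4679, 6519 and 4592 CPM. GSONMT00027814001, at 2618 CPM, was within the range of the older fish. Whether the library was exchanged with that of a younger fish cannot be checked from the tables. Body mass and sex of single fish were not analysed here, and their part in this was not tested. Its own library held 39.7% of fragments in the 100 genes, and without it the share of the group was 35.2% ± 0.566 (SD, n = 3) in place of 36.3% ± 2.29.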

How the data were processed

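RNA of 48 livers was sequenced as paired ends from stranded mRNA libraries. Per the study's methods and the labels, the authors aligned reads to the published rainbow trout genome with Bowtie2 2.2.6 and TopHat2 2.1.0 and ran Cufflinks and Cuffdiff within each time point. The deposited counts are raw fragments per gene and fish, whole numbers in all entries, and the deposited FPKM values are fragments scaled to transcript length and depth as the authors' Cufflinks normalized them within a time point. The 8 columns of scaled fragments were not used and Cuffdiff was not rerun. Genes marked HIDATA in any table (17 of 46585) were left out.

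Fish were grouped by the labels. The labels of the younger F2 fish give 140 dpf in the title and 112 dpf elsewhere, and 112 was used; the F1 BPA40 labels differ in the exposure concentration, and the treatment name was used. Members and lists were chosen with earlier results of these data known. CPM was taken over the 46568 kept genes, without TMM. All fragments per fish ranged from 6788950 to 19528500. Wilson intervals (95%) cover counting error only.

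Genes were tested with edgeR 4.0.16 (glmQLFit and glmQLFTest, TMM, filterByExpr; R 4.3.3) and Benjamini-Hochberg adjustment at 0.05. Age was fitted over the 24 fish of a generation, generation over the 24 fish of 365 dpf, their interaction over 48 fish and treatment over the 12 fish of a time point. Alternatives were RLE factors, library sizes only, TMM without the 100 genes, other filters, the 2 groups compared only, a replicate block, DESeq2 1.42.0 and each fish left out. The share, which had no test, was recomputed with 50 and 200 genes, with FPKM, with members chosen on BPA fish and with marked genes left out only where marked. The code was tested on data simulated for the F1 BPA40 age comparison. Of 200 changed genes, it recovered 9 at a log2 change of 1, 158 at 2 and 186 at 3. False calls numbered 1, 5 and 7. Tables and plots were made with Python 3.11.15, pandas 2.3.3, numpy 2.4.6, scipy 1.17.1 and matplotlib 3.10.9.

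Named genes were the first 10 by Control mean, the 8 that rose and the 8 that fell most among genes called in all 4 age comparisons, the 4 most and 4 least variable genes, and ranks 98 to 103; no gene met the rules for both generation comparisons or for treatment. Other named genes were chosen after their values were seen. Identifiers matched to the reference table numbered 0, so gene lists and tissue markers were not applied. Of 72 pairs of fish of 1 group, none was alike within counting error (chi-square per degree of freedom 20.6 to 112).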

Additional observations from a re-analysis of the deposited data

Results flagged for a closer look

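Among the shares and the 10 leading genes, 10 of 144 groups of 4 fish held a fish apart from the other 3 by Dixon's criterion, where chance gives 7.2 (about 1 group in 20). F2 365 dpf Control replicate 0 did so 3 times, with 41.0% of its fragments in its own first 100 genes, 17629 CPM of GSONMT00049136001 and 18287 CPM of GSONMT00051732001. F2 365 dpf BPA4 replicate 2 had 15372 CPM of GSONMT00064112001 and 4044 CPM of GSONMT00063041001. GSONMT00013866001 was at 3504 CPM in F1 140 dpf BPA40 replicate 2 and at 12093 CPM in F2 112 dpf BPA40 replicate 0. GSONMT00051732001 was at 6052 CPM in F1 140 dpf BPA4 replicate 1, GSONMT00019921001 at 4588 CPM in F1 365 dpf Control replicate 0 and GSONMT00015050001 at 7863 CPM in F1 140 dpf BPA40 replicate 1.

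The age change differed between F1 and F2 for 41 of the 100 genes in BPA4 and 40 in BPA40 by the interaction test of edgeR. Over all genes tested, 21.4% had a more positive and 16.4% a more negative change in F2 in BPA4, and 15.0% and 13.7% in BPA40. Among the named genes, the change was larger in F2 by these log2 units in BPA4 and BPA40: GSONMT00003188001 by 2.76 and 1.61, GSONMT00023854001 by 1.70 and 1.42, GSONMT00068278001 by 1.65 and 1.23 and GSONMT00044276001 by 1.90 and 1.45. GSONMT00038205001 was called in BPA40 (2.34). The fall was steeper in F2 for GSONMT00007417001 (-3.01 and -2.51), GSONMT00019922001 (-1.92 and -1.64), GSONMT00019921001 (-1.58 and -1.65), GSONMT00027814001 (-1.69 and -1.42) and GSONMT00079711001 (-1.01 and -1.08), and in BPA4 for GSONMT00051190001 (-0.97). By library size these falls differed less: GSONMT00007417001 had -2.06 and -1.57, GSONMT00019922001 -1.05 and -0.73, GSONMT00019921001 -0.71 and -0.72, GSONMT00027814001 -0.83 and -0.47, GSONMT00079711001 -0.17 and -0.15 and GSONMT00051190001 -0.10 in BPA4, and only GSONMT00007417001 in both treatments and GSONMT00019922001 and GSONMT00027814001 in BPA4 passed the test. The rises differed more by library size (2.09 to 3.64) and all passed. The younger fish were 140 dpf old in F1 and 112 dpf in F2, so that age and generation cannot be told apart.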

How the results depend on the processing

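Of the shares and counts of called genes recomputed under other settings, 198 stayed within 1 SD between fish or within 1.5 times the count, and 15 did not. The counts took rises and falls together, so a turn in their balance is not among the 15. In F2 BPA4, for example, 19 genes rose and 51 fell with TMM, and 39 rose and 25 fell by library size. The share difference with age was -1.94 points in F1 and -1.51 points in F2 with marked genes left out only where marked, and -0.85 points in F2 over the 200 most abundant genes. With only the 2 groups compared in the fit, 17 and 26 genes were called with age in F1 BPA4 and BPA40. Between generations, 3 genes were called in BPA4 without a filter, and DESeq2 called 16 in BPA4 and 6 in BPA40, where library sizes alone gave 1. Of all genes, DESeq2 called 8.08% in BPA4 and 3.87% in BPA40 between generations. Between treatments, DESeq2 called 1 gene for BPA40 against BPA4 at F1 140 dpf, 1 at F1 365 dpf, 2 for BPA4 against Control at F2 112 dpf (1 with edgeR without a filter), and 3 for BPA4 and 1 for BPA40 against Control at F2 365 dpf. Of all genes, DESeq2 called 0.905%, 0.382%, 0.740%, 2.36% and 2.08% in these comparisons, in the same order. No shares over all genes are given for fits of 2 groups, without a filter, with a fish left out or with a replicate block. Those counts show only how the calls moved. The Control fish chose the genes, so the counts against Control are no test of treatment. The cause was not tested. For the age changes of the 16 named genes, 492 settings kept the call, 20 lost it and 0 reversed.

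With each fish left out, 14 to 29 genes were called with age in F1 BPA4 and 25 to 45 in F1 BPA40, 63 to 70 and 63 to 74 in F2, and 2 to 8 and 0 to 3 between generations. In F1 BPA4 the count was 16 without F1 140 dpf replicate 1, and 14 and 17 without F1 365 dpf replicates 2 and 3, and in F1 BPA40 25 without F1 140 dpf replicate 2. Between generations in BPA4 it was 2 without F1 365 dpf replicate 0 or F2 365 dpf replicate 1, 3 without F2 365 dpf replicate 3 and 8 without F2 365 dpf Control replicate 0, and in BPA40 1, 2 and 3 without F1 replicate 0, F2 replicate 1 and F2 Control replicate 0. Leaving out that Control fish was added after seeing the data, in fits where it was in none of the groups compared. So were the choice of genes without it and the FPKM shares of single groups. Treatment counts stayed at 0.

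With a replicate block, 26, 39, 68 and 74 genes were called with age (F1 BPA4, F1 BPA40, F2 BPA4 and F2 BPA40), 6 and 0 between generations, 41 and 40 in the interaction and 0 between treatments. Numbers did not pair fish: in 0 of 18 comparisons were all same-numbered deviations correlated above 0.1 (r -0.47 to 0.49). Each of the 100 genes had at least 63 fragments in every fish, and counting error of a share (at most 0.0367 points) was far below the SD between fish (2.19 points).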

Other observations

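Without the 17 marked genes, 50% of a fish's fragments lay in 118 to 253 genes at F2 112 dpf and in 180 to 379 at F2 365 dpf. The 118 belonged to F2 112 dpf BPA4 replicate 1, which had the fewest fragments, and the 379 to F2 365 dpf BPA40 replicate 0. Group means at the 2 ages were 229.5 and 221 in Control, 175 and 253 in BPA4 and 178 and 292 in BPA40 (n = 4 each). In F1 the mean over 12 fish was 218 at 140 dpf and 192 at 365 dpf.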
